A study of Mus musculus with 10 samples.

Results

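Transcripts of 10 S100 calcium-binding proteins were followed in mouse pancreatic tumors of normoglycemic mice and of mice made hyperglycemic by dextrose in the drinking water. The 10 genes were S100a1, S100a3, S100a4, S100a6, S100a10, S100a11, S100a13, S100a14, S100a16 and S100b, out of 55359 genes in the deposited table, found by matching mouse Ensembl identifiers to gene symbols. S100a8 and S100a9, the S100 genes of neutrophils and other myeloid cells, were left out of the set. The members were chosen from the difference between the same groups in these tumors, so their differences between groups are given as a description. Where a member is said to be called, the call is part of that description and not a test of it. S100a14 was the member with the largest difference, at 476 ± 224 normalized counts in tumors of normoglycemic mice and 4403 ± 1919 in tumors of hyperglycemic mice (SD, n = 5 each), with no overlap between the groups. For the other 9 members the groups overlapped.

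S100 proteins are small proteins that mostly work as pairs and carry EF-hands, loops that hold a calcium ion between acidic side chains. When calcium rises inside the cell, a hydrophobic surface opens and the pair docks onto a target such as an annexin, a cytoskeletal protein or a kinase. Several members also leave the cell and act on receptors. In mouse and human most S100 genes lie side by side in a cluster, next to genes of the skin barrier, and in pancreatic ductal adenocarcinoma S100 proteins such as S100A4, S100A6 and S100A11 are long-known tumor proteins.

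RNA was sequenced from 10 orthotopic tumors grown from the KPC line K8484, mouse pancreatic cancer cells that carried luciferase and were injected into the pancreas tail of C57BL/6 J mice aged 10 weeks, whose immune system is intact. In the CTRL group 5 mice drank regular water, and in the D30 group 5 mice drank 30% dextrose water for 14 days. The tumors of both groups thus share 1 cell line, although the sample titles call them PDX, and the labels do not tie a column of the table to an animal. Tumors are therefore named by their column, N1, N2, N4, N5 and N6 for CTRL and T1, T2, T4, T5 and T7 for D30. According to the methods, host mice of both sexes were used in equal numbers, but the labels do not give the sex behind a tumor. The labels say no more of how the tumors of a group differ, and p-values rest on the spread between tumors within the groups. T4 alone held Y-linked reads, as given below, and no fit took account of sex.

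The values are normalized counts, that is, reads per gene divided by a size factor for each tumor, and the reads recovered from them numbered 29192261 to 42122304 per tumor. The tumor in column T4 stood apart, since it alone held reads of the 4 Y-linked genes Ddx3y, Eif2s3y, Kdm5d and Uty (841 in all, against 0 in each of the other 9 tumors), and T5 had the fewest genes with a read (20482, against at least 23446 elsewhere). The tumor tissue was taken whole, so fewer cells of a type and less RNA per cell cannot be told apart, and no member can be placed in tumor cells from these values alone. Of 12 markers of ductal tumor cells, the keratin genes Krt7, Krt8, Krt18 and Krt19 were abundant in every tumor, while Epcam did not pass 191 normalized counts in any tumor. The summed level of the 12 markers was 266804 to 397414 normalized counts in CTRL and 421016 to 614660 in D30 tumors, without overlap, with 0 of the 12 called higher and Cldn7 alone called lower. The sum of 6 endothelial markers was lower in D30 without overlap, at 10874 to 18120 in CTRL and 5399 to 9713 in D30 tumors, with Cdh5 called lower, and Ins1, Gcg and Iapp of 6 islet markers were called lower, with sums of 11.5 to 1488 and 0 to 83.6. The sum of 6 skeletal muscle markers did not overlap either, at 52.2 to 71.9 and 99.7 to 169, with none called and Myh1 and Myh4 at 0. The part of these cell types in the members' values was not tested. Differential expression was tested with limma on log2(normalized count + 1) over 24560 genes, and a gene was called at a Benjamini-Hochberg adjusted p under 0.05.

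The members on chromosome 3 differ in the loop that binds calcium most tightly, in the EF-hand near the end of the protein. The coding bases of its 12 codons are shown for these 9 members, taken from the GENCODE M21 transcripts (GRCm38). Capitals mark the codons of the loop's positions 1, 3, 5 and 12 where they encode Asp or Asn at the first 3 of these or Glu at position 12, the residues that usually hold the ion.
S100a1: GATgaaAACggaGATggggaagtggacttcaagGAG
S100a3: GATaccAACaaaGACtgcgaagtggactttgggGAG
S100a4: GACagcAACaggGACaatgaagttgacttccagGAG
S100a6: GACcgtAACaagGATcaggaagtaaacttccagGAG
S100a10: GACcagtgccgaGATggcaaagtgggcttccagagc
S100a11: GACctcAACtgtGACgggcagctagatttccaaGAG
S100a13: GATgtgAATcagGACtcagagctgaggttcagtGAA
S100a14: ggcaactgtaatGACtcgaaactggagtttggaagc
S100a16: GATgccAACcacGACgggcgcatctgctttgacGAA
All 4 of these codons were of the usual kind in 7 of the 9 members. S100a10 kept 2 of 4 and S100a14 kept 1 of 4. S100a10 is the family's known exception that takes its active shape without calcium. Over the 36 bases of the loop the closest members were S100a4 and S100a6, with 28 identical bases, and the most distant were S100a14 and S100a16, with 12 identical bases. S100a14, the member with the largest difference between groups, is thus also the one of the 9 with the fewest usual calcium-holding codons, which is a description of these sequences and not a test.

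S100a14 encodes an S100 protein of epithelia and lies at chr3:90526856-90528837 (GRCm38, plus strand), 2274 bases beyond S100a13. Its normalized count was 520 in N1, 287 in N2, 823 in N4, 270 in N5 and 481 in N6, and 3709 in T1, 3934 in T2, 7799 in T4, 3275 in T5 and 3298 in T7. Every D30 tumor lay above every CTRL tumor, and 4 of the D30 tumors lay close together while T4 was well above them. The log2 fold change of S100a14 was 3.24 ± 0.33 (SE), a ratio of means of 9.25. Without T4 the D30 mean of S100a14 was 3554 ± 322 normalized counts (SD), 7.46 times the CTRL mean, with a log2 fold change of 3.02. S100a14 was the only 1 of the 10 members that was called, while 2.76% of all genes tested were called in either direction and 1.40% as higher in D30. S100a14 was likewise the only member whose groups did not overlap, against 6.19% of all genes tested. Nothing is read from these shares, because the members were selected on the same contrast.

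S100a16, a calcium binder found in many tissues, is the next member along the chromosome, 8416 bases beyond S100a14. Its normalized count was 5938 in N1, 3299 in N2, 5253 in N4, 2673 in N5 and 3994 in N6, and 5429 in T1, 5350 in T2, 26368 in T4, 6583 in T5 and 6683 in T7. The tumors T1 and T2 lay below N1, so the groups overlapped, and T4 was 4.39 times the mean of the other D30 tumors. The log2 fold change of S100a16 was 0.99 ± 0.40 (SE), and it was 0.56 without T4. Set against S100a16 in the same tumor, S100a14 amounted to 8.70% to 15.7% of the S100a16 count in the CTRL group and 29.6% to 73.5% in the D30 group. The ratio was lowest among D30 tumors in T4, where both genes were highest, and the groups did not overlap on it.

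S100a1 and S100a13 stand back to back on opposite strands. S100a1 (chr3:90511034-90514392, minus strand) regulates calcium release in muscle, and S100a13 (chr3:90514435-90524581, plus strand) carries signal proteins such as FGF1 and interleukin 1 alpha out of the cell without a secretion signal. The 42 bases between their annotated starts, chr3:90514393-90514434 (GRCm38, written on the plus strand), are shown because both annotated starts border them.
S100a1-S100a13: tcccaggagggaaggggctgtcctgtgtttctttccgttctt
S100a1 was at 3548 normalized counts in N1, 1991 in N2, 2496 in N4, 1842 in N5 and 2237 in N6, and at 1939 in T1, 2740 in T2, 6236 in T4, 2705 in T5 and 3431 in T7. Only T4 lay above all CTRL tumors. S100a13 was at 1693 in N1, 1066 in N2, 1201 in N4, 886 in N5 and 1242 in N6, and at 1385 in T1, 1462 in T2, 3804 in T4, 1414 in T5 and 1933 in T7. The tumors T4 and T7 lay above all CTRL tumors for S100a13. The log2 fold changes were 0.42 ± 0.29 (SE) for S100a1 and 0.63 ± 0.29 (SE) for S100a13, and 0.17 and 0.37 without T4. The ratio of S100a1 to S100a13 ran from 1.80 to 2.10 in CTRL and from 1.40 to 1.91 in D30 tumors. S100a14 next door, by contrast, amounted to 26.9% to 68.5% of the S100a13 count in CTRL and 171% to 269% in D30 tumors.

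**Figure D1:**
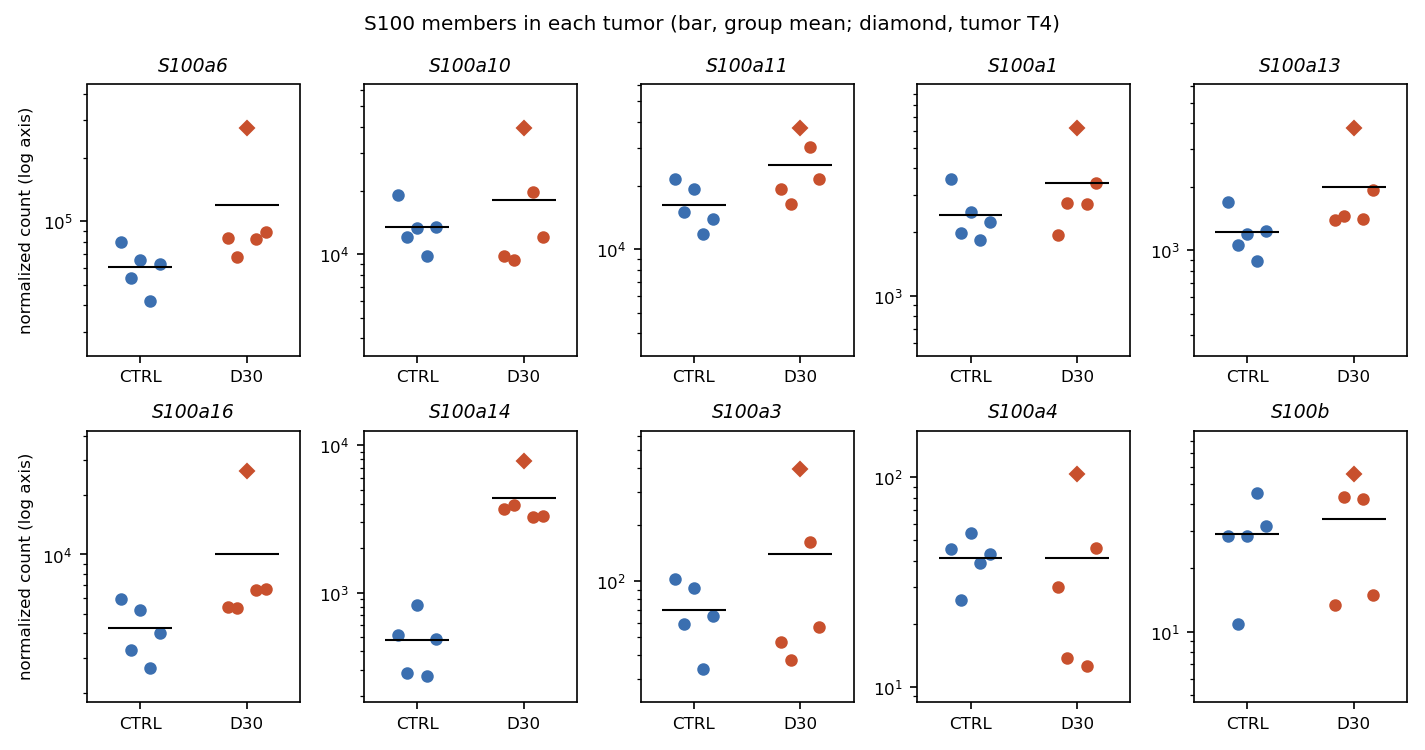
Normalized count of each S100 member (log axis, scaled per panel) in the 5 CTRL and 5 D30 tumors, with the group mean as a bar and T4 as a diamond. S100a14 is the member whose groups are apart, from 270 to 823 in CTRL and 3275 to 7799 in D30 tumors, and T4 is the highest of the 10 tumors in all 10 panels.

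Members that dock onto annexins were the most abundant of the set per kilobase of exon. S100a6, or calcyclin, which binds annexin A11 and the ubiquitin ligase adaptor Cacybp, had a normalized count of 79595 in N1, 53941 in N2, 65264 in N4, 41885 in N5 and 62846 in N6, and 83748 in T1, 67714 in T2, 277058 in T4, 82420 in T5 and 89202 in T7. All D30 tumors except T2 lay above every CTRL tumor. The log2 fold change of S100a6 was 0.79 ± 0.36 (SE) and was 0.44 without T4, where the D30 mean was 80771 ± 9186 (SD, n = 4) beside a CTRL mean of 60706 ± 13983 (SD, n = 5).

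S100a11, or calgizzarin, the partner of annexin A1, was at 21397 normalized counts in N1, 14920 in N2, 19238 in N4, 11824 in N5 and 13934 in N6, and at 19271 in T1, 16354 in T2, 37537 in T4, 30392 in T5 and 21427 in T7. For S100a11 3 D30 tumors lay above all CTRL tumors, and the log2 fold change was 0.59 ± 0.26 (SE), or 0.42 without T4. S100a10, which pairs with annexin A2 and gathers plasminogen at the cell surface, was at 19036 in N1, 12111 in N2, 13252 in N4, 9776 in N5 and 13447 in N6, and at 9844 in T1, 9418 in T2, 39683 in T4, 19653 in T5 and 12014 in T7. The D30 tumors of S100a10 reached both below and above the CTRL tumors, and its log2 fold change of 0.22 ± 0.36 (SE) became -0.12 without T4. The members together took 0.222% to 0.419% of a CTRL tumor's reads and 0.320% to 0.403% of a D30 tumor's, T4 apart, where they took 0.929%. S100a6 supplied 56.2% to 69.4% of the members' summed normalized counts in every tumor.

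The remaining 3 members were scarce. S100a4, or metastasin, which binds the motor protein non-muscle myosin and is also known from fibroblasts and macrophages, ranged from 26.0 to 53.9 normalized counts in CTRL and from 12.6 to 104 in D30 tumors. S100a4 was the only member with a negative log2 fold change, -0.40 ± 0.54 (SE), or -0.83 without T4, while its group means were level at 41.4 and 41.2 normalized counts and DESeq2 gave -0.0050. S100a3, known from the hair cuticle, ranged from 33.6 to 102 in CTRL and from 37.8 to 397 in D30 tumors, and its log2 fold change of 0.48 ± 0.59 (SE) became -0.04 without T4. The annotated span of S100a3 overlaps S100a2 on the same strand, so reads could have been split between them. S100a3 and S100a4 also each overlap Gm42674 on the same strand, at a mean of 4.56 normalized counts, with the same limit. S100b, the S100 protein of astrocytes and Schwann cells, lies apart from the cluster at chr10:76253853-76261159 and ranged from 10.8 to 45.1 in CTRL and from 13.4 to 55.5 in D30 tumors. The log2 fold change of S100b was 0.14 ± 0.51 (SE), or -0.09 without T4. S100b overlaps Dip2a on the opposite strand, at a mean of 1999 normalized counts, and the counting by strand is not stated in the sources used here. Among markers of Schwann cells Sox10, Cdh19 and Foxd3 held at most 5 reads in any tumor, and none of the 5 tested markers was called, with summed levels from 2317 to 3713 in CTRL and 1662 to 4987 in D30 tumors.

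**Figure D2:**
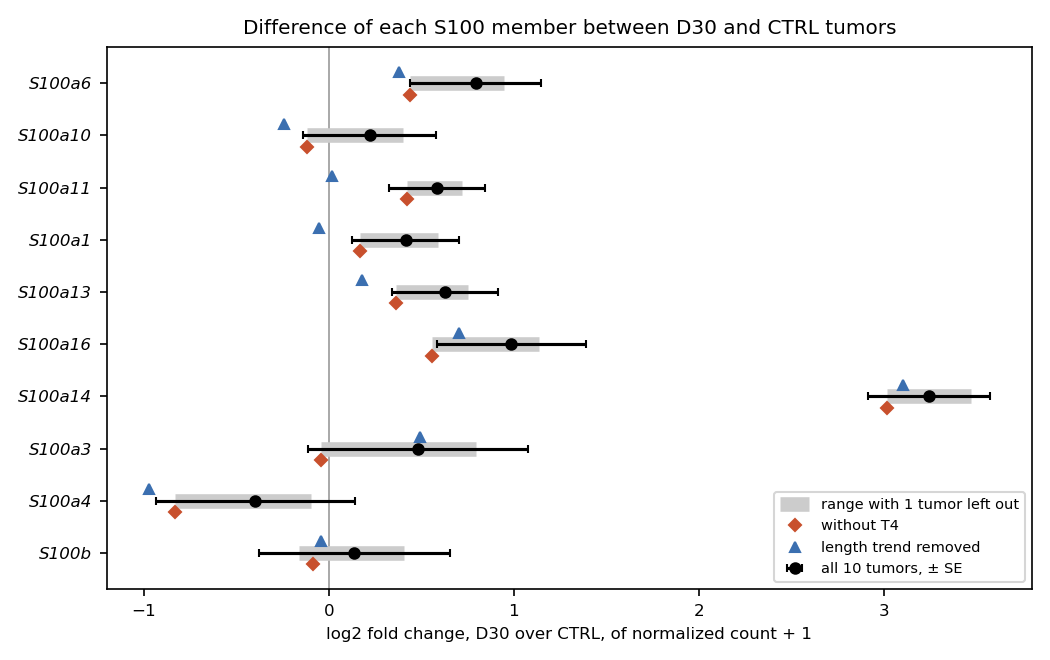
Log2 fold change of each S100 member between D30 and CTRL tumors, with its SE (black), the range when each tumor is left out in turn (grey), the value without T4 (red diamonds) and the value after a trend on transcript length was removed (blue triangles). S100a14 stays between 3.02 and 3.47 when any 1 tumor is left out, whereas S100a10, S100a3 and S100b cross 0.

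Levels of different genes were compared per kilobase of annotated exon. On this scale the CTRL level was 44408 ± 10229 normalized counts per kilobase (SD, n = 5) for S100a6 and 31825 ± 7713 for S100a11, 2 neighbours in the order whose ranges overlapped. S100a10 followed at 11159 ± 2813, apart from both. With the longest transcript as the length these statements turned, since S100a6 (53493 to 101653 per kilobase) then lay apart from S100a11 (23138 to 41873) and S100a10 (14272 to 27790) overlapped S100a11. S100a1 was at 3491 ± 975, S100a16 at 2617 ± 836 and S100a13 at 1703 ± 419 normalized counts per kilobase, each overlapping the next. S100a14 was at 276 ± 130, below S100a13 and above S100a4 at 70.9 ± 17.5 in every CTRL tumor. S100b at 19.5 ± 8.24 and S100a3 at 12.4 ± 4.79 were lowest and overlapped. By the longest transcript S100a16 stood above S100a1 and S100a3 above S100b in CTRL tumors, with overlap in both pairs, and the rest of the order was the same. In D30 tumors the order per kilobase of annotated exon was that of CTRL tumors except that S100a16 (6236 ± 5643) stood above S100a1 (4914 ± 2400) and S100a3 above S100b, and the level of S100a14 of 2549 ± 1111 normalized counts per kilobase overlapped that of S100a13, 2797 ± 1445.

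Members that lie near each other could differ widely in level. S100a6 and S100a4 lie 6836 bases apart on the same strand, and the CTRL level per kilobase of S100a6 was 627 times that of S100a4. With the longest transcript as the length the ratio was 933. The annotated span of S100a4 overlaps that of Gm42674 on the same strand, and the counting settings are not known. Reads of S100a4 could thus have been missed, which was not tested. The upstream sequences of S100a6 and S100a4 from RefSeq (GRCm38) are shown because these genes differ so much in measured level. The motifs found are in capitals, TATAAA for a TATA box and CCAAT for a CCAAT box, searched on both strands. The S100a6 stretch is chr3:90612644-90612881 and the S100a4 stretch chr3:90603520-90603769, both on the plus strand and both ending before the annotated start.
S100a6: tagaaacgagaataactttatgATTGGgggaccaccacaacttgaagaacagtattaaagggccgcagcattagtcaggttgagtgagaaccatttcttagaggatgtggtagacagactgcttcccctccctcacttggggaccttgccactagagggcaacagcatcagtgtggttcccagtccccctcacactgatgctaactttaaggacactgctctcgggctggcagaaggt
S100a4: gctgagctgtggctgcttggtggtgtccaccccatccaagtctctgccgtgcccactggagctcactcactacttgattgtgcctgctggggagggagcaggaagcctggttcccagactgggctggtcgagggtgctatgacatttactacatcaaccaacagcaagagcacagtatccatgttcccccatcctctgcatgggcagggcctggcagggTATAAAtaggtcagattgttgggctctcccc
The scarce S100a4 held the TATAAA, which occurred in 13.6% of the 32851 promoter windows of 300 bases in the same RefSeq table, and the abundant S100a6 held the CCAAT on the minus strand (printed as ATTGG), which occurred in 37.4%. The other motifs searched were GGGCGG for a GC box (35.7% of windows), CACGTG for an E box (7.15%) and TGANTCA for an AP-1 site (7.81%), and none of the 5 contains another. A promoter entry was found for 8 of the 10 members, the CACGTG of the S100a6 window lay beyond the stretch shown, and the windows of S100a1 and S100a13 held none of the 5 motifs.

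Within the groups most members were high in the same tumors and low in the same tumors. N1 was the highest CTRL tumor for 7 of the members and N5 the lowest for 8, and T4 was the highest tumor for all 10. Over the deviations of the 10 tumors from their group means, the 45 pairs of members had a median Pearson r of 0.77, from 0.10 to 0.98. The pair S100a6 and S100a16 was at 0.98, S100a3 and S100a10 at 0.98, S100a1 and S100a13 at 0.96, and S100a6 and S100a14 at 0.75. S100b, on another chromosome and scarce, reached 0.10 to 0.44 with the others. Without T4 the median over the pairs was 0.47. These correlations are a description over 10 tumors in which every gene of a tumor shares the library, its depth and its scaling.

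The same tumors stood high or low for short transcripts in general. Among protein-coding genes of mean 100 or more, members left out, the 449 genes with a longest transcript under 1 kb lay 0.38 above the CTRL mean in N1, -0.32 from it in N5 and 0.84 above the D30 mean in T4, as medians of log2 deviations. The members' own medians were 0.47 in N1, -0.43 in N5 and 1.21 in T4. Between groups, the median log2 fold change was 0.42 for the 449 genes under 1 kb, 0.16 for 1850 genes of 1 to 2 kb, 0.01 for 4759 genes of 2 to 4 kb, -0.12 for 3847 genes of 4 to 8 kb and -0.20 for 662 longer ones. S100 transcripts are short, with a longest annotated form of 498 bases for S100a4, 511 for S100a11, 677 for S100a1, 685 for S100a10, 715 for S100a13, 783 for S100a6, 1127 for S100a16, 1484 for S100b, 1683 for S100a14 and 3143 for S100a3. The median log2 fold change of the members was 0.53, against -0.06 for all genes tested. It was 0.27 without T4 and 0.10 once each tumor's length trend over protein-coding genes had been removed, an alternative chosen after seeing the data. With that trend removed S100a14 was at 3.10, S100a16 at 0.70, S100a6 at 0.38 and S100a11 at 0.02, and the median r of the pairs was 0.23. With the trend taken over all tested genes the median log2 fold change of the members was 0.54.

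Other measured features moved with the same tumors. In T4 the summed level of 8 macrophage markers was 69272 normalized counts, against 12665 to 22232 in the other D30 and 26365 to 57463 in CTRL tumors. Lyz2 alone made up 46217 of the sum in T4, and over the other 7 macrophage markers T4 was at 23055, against 9949 to 13110 in the other D30 and 16007 to 26564 in CTRL tumors. Csf1r of the same list was lowest of all 10 tumors in T4, at 693. The summed level of 9 fibroblast markers in T4 was 28460, against 53678 to 104018 in the other D30 and 77684 to 138025 in CTRL tumors. Of these markers only Csf1r of the macrophage list was called, lower in D30, and none was at 0 in every tumor. The part of transcript length and of these cell type markers in the members' values was not tested.

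**Figure D3:**
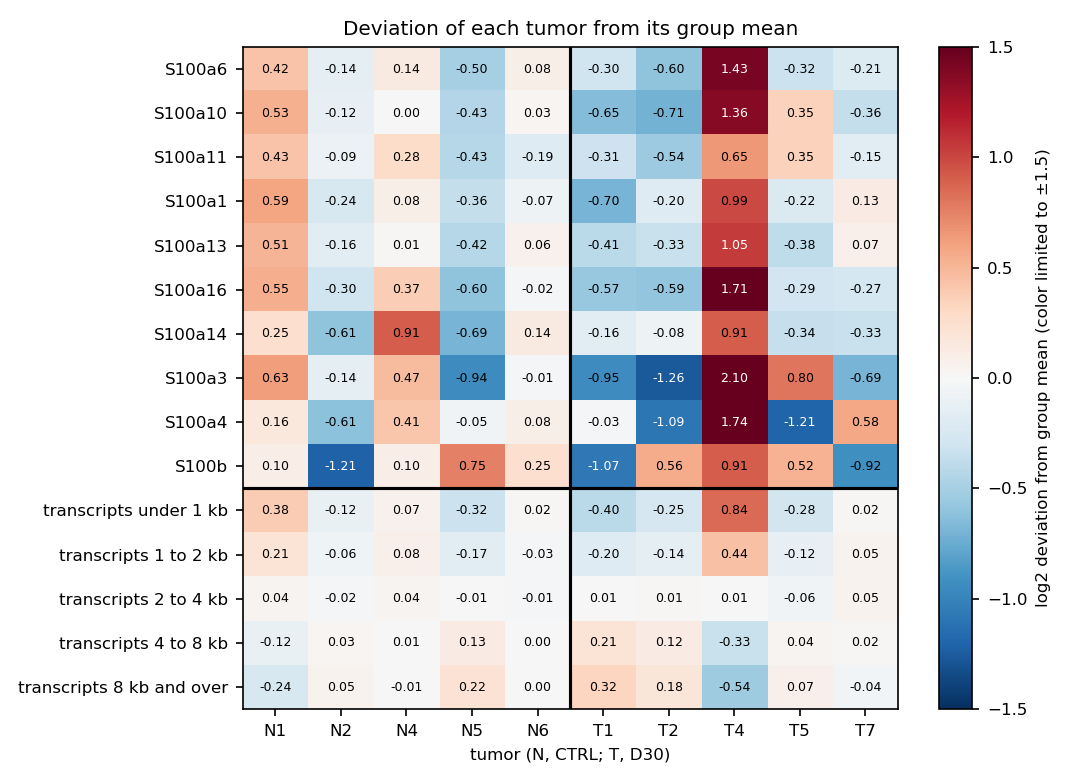
Deviation of each tumor from its own group mean on the log2 scale for the 10 S100 members (upper rows) and as medians of protein-coding genes by length of the longest transcript (lower rows), with CTRL tumors left and D30 tumors right of the line. T4 is red for every member and for the transcripts under 1 kb (0.84), and N5 is blue for S100a6, S100a10 and S100a16 and for the same short transcripts (-0.32).

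For each member the genes closest to it within groups were sought among 12207 tested genes of mean 100 or more, other members left out. Sec61b and Psmb6, of the translocation channel and the proteasome, were closest to S100a13 (r = 0.997 and 0.991), Uqcrh and Rps27, of the respiratory chain and the ribosome, to S100a1 (0.989 and 0.987), and Cnih1 and Dctn3 to S100a16 (0.994 and 0.988). Pole3 and Cdc34 were closest to S100a6 (0.994 and 0.992), Capzb and Tmsb10, both of the actin cytoskeleton, to S100a3 (0.987 and 0.985), Arf2 and Hddc2 to S100a10 (0.987 and 0.986), and Tcp1 and Sars to S100a11 (0.982 and 0.979). S100a14 had no match as close, with Net1 at 0.918 and Cd36 at 0.915, and neither did S100b, with Tbc1d24 at 0.931 and Bbs2 at 0.878, nor S100a4, with Tgtp2 at 0.954 and Nubp2 at 0.953. Each pair is the closest of 12207 genes over 10 tumors, T4 among them. The longest transcripts of the matches were 723 and 966 bases for S100a13 and 801 and 672 for S100a1, but 3419 and 3570 for S100a11. The part of T4 and of transcript length in these r values was not tested.

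The other S100 genes were tested with the whole table. None of the 7 tested genes was called by limma, edgeR or DESeq2, and 2 had an unadjusted p under 0.05. S100a8 and S100a9, which form the calprotectin of neutrophils, had log2 fold changes of 1.91 (limma, adjusted p = 0.275) and 1.72 (adjusted p = 0.287). S100a8 ranged from 140 to 1405 normalized counts in CTRL and from 176 to 5561 in D30 tumors and was highest in T5. The summed level of 8 neutrophil markers, these 2 among them, was also highest in T5, at 15494 normalized counts against 643 to 3158 in CTRL tumors, and 0 of the 8 were called. T5 also had the highest sum of 4 erythroid markers, at 171591 normalized counts against 4394 to 6551 in CTRL tumors, with 0 called. The part of these cell types in the S100a8 and S100a9 values was not tested. S100a7a, a psoriasin relative of the skin, and S100a2 had log2 fold changes of 0.45 (limma, adjusted p = 0.466) and -0.68 (adjusted p = 0.524). The median over the 7 genes was 0.66, and 0.27 without T4.

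Annexins, which bind membranes when calcium rises and are docked by S100a6, S100a10 and S100a11, were tested as a list of 12. None was called by limma, 10 had a positive log2 fold change, and 5 had an unadjusted p under 0.05. Anxa11, the partner of S100a6, was at 4959 ± 794 normalized counts in CTRL and 7651 ± 992 in D30 tumors (SD, n = 5 each), without overlap, a log2 fold change of 0.63 ± 0.18 (SE; limma, adjusted p = 0.0772). Anxa11 passed the threshold without T4 (limma, adjusted p = 0.0165), with DESeq2 (adjusted p = 0.0170) and with the length trend of all tested genes removed (limma, adjusted p = 0.0481). It did not pass with edgeR and TMM (adjusted p = 0.0589) or library-size scaling (limma, adjusted p = 0.263). Nor did it pass when any tumor other than T4 was left out (limma, adjusted p 0.0901 to 0.236). Anxa2, the partner of S100a10, was at 38088 ± 6644 in CTRL and 61027 ± 25097 in D30 tumors, with overlap (log2 fold change 0.62, limma, adjusted p = 0.238). Anxa7, whose groups did not overlap either, had a log2 fold change of 0.53 (limma, adjusted p = 0.191). Anxa6, with overlap, had one of -0.73 (limma, adjusted p = 0.247). The median over the annexins was 0.43.

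Of 19 intracellular partners of S100 proteins 2 were called, both higher in D30. Il1a, the interleukin 1 alpha that leaves cells with S100a13, was at 70.2 ± 26.5 normalized counts in CTRL and 195 ± 77.2 in D30 tumors (SD, n = 5 each), without overlap, and rose by 1.46 ± 0.34 (SE) on the log2 scale (limma, adjusted p = 0.0352). Sugt1, a co-chaperone that S100a6 binds, was at 1347 ± 496 in CTRL and 2845 ± 936 in D30 tumors and rose by 1.08 ± 0.26 (SE) on the log2 scale (limma, adjusted p = 0.0462). N1, at 2222, lay above T2, at 2077, and T5, at 2031, for Sugt1. Both calls rested on several tumors: Il1a lost its call without any of N1, N2, N5, N6, T1, T2 or T7 (adjusted p 0.0528 to 0.116) and Sugt1 without any of N2, N4, N5, N6, T1, T2 or T7 (adjusted p 0.0547 to 0.142). With 1 tumor left out the log2 fold change ran from 1.26 to 1.64 for Il1a and from 0.92 to 1.28 for Sugt1. Over all 23 alternative settings, those with 1 tumor left out among them, Il1a kept its call in 14 and Sugt1 in 10. Sugt1 also lost its call with library-size scaling (limma, adjusted p = 0.0807) and with no filter on low values (adjusted p = 0.0568). The other 17 partners were not called, and the median of the list was 0.17.

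Among 15 tested genes of S100 receptors and of the plasmin system, which S100a10 serves at the cell surface, 1 was called higher and 1 lower. Bsg, or basigin, a surface glycoprotein that binds extracellular S100 proteins, was at 23604 ± 4573 normalized counts in CTRL and 53388 ± 19298 in D30 tumors (SD, n = 5 each), without overlap, and rose by 1.13 ± 0.25 (SE) on the log2 scale (limma, adjusted p = 0.0281). Serpine2, a secreted inhibitor of plasmin, urokinase and thrombin, was at 2789 ± 657 in CTRL and 1240 ± 452 in D30 tumors and fell by 1.20 ± 0.25 (SE) on the log2 scale (limma, adjusted p = 0.0222). For Serpine2 T7, at 2021, lay above N6, at 1886. The call of Bsg was lost without any of N1, N2, N5, N6 or T7 (adjusted p 0.0542 to 0.0977) and that of Serpine2 without any of N1, N2, N4, N5 or T2 (adjusted p 0.0511 to 0.0810). With 1 tumor left out the log2 fold change ran from 0.94 to 1.25 for Bsg and from -1.39 to -1.08 for Serpine2. Over all 23 alternative settings Bsg kept its call in 15 and Serpine2 in 17. Plg, the plasminogen gene itself, was too low to be tested. The median of the list was 0.12.

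Of 28 tested genes of other EF-hand proteins 1 was called. Efhd2, an actin-binding EF-hand protein that is named here after its value was seen, was at 3657 ± 559 normalized counts in CTRL and 7564 ± 1058 in D30 tumors (SD, n = 5 each), without overlap, and rose by 1.05 ± 0.17 (SE) on the log2 scale (limma, adjusted p = 0.0066). Its call held when any 1 tumor was left out, and in 21 of all 23 alternative settings. The list's median was 0.26, with 21 genes positive and 7 negative.

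**Figure D4:**
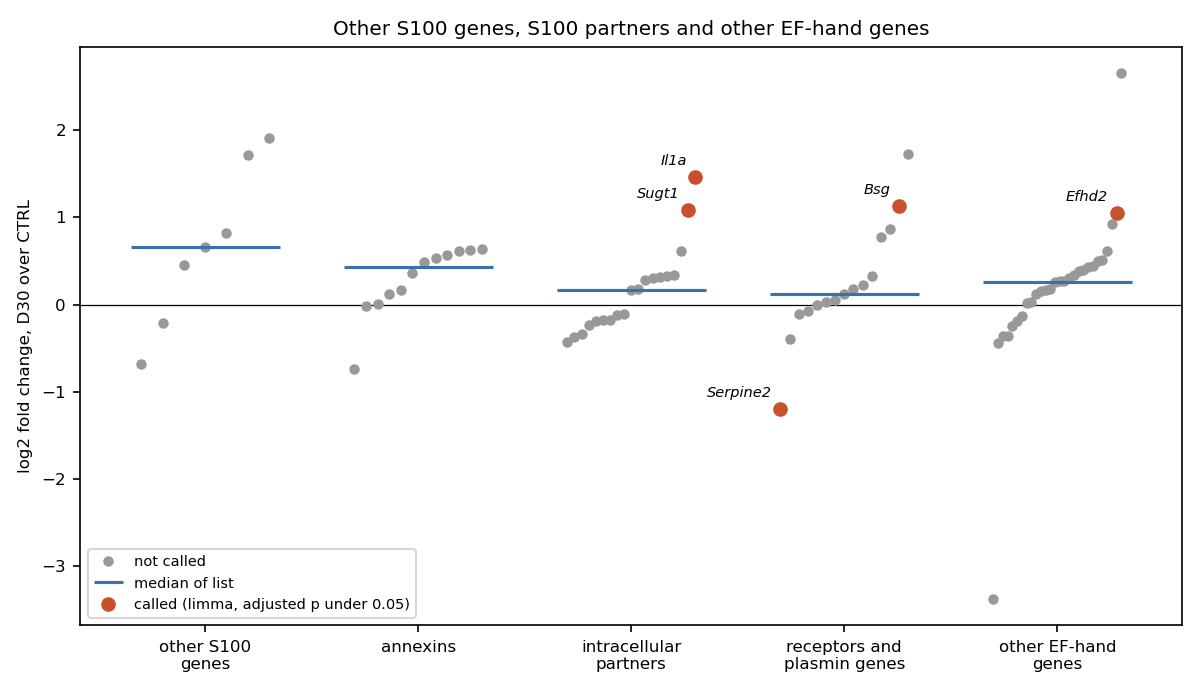
Log2 fold change between D30 and CTRL tumors of each tested gene of 5 lists around the S100 members, with called genes in red and the list median as a blue bar. Il1a, Sugt1, Bsg and Efhd2 lie above 0 and Serpine2 below it at -1.20, and no other S100 gene or annexin is red.

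The 9 members there lie in 2 stretches, from S100a1 to S100a6 and, 2896306 bases on, S100a11 with S100a10. Of 108 other annotated genes from the first to the last member 39 were tested and 0 were called by limma, while 7 had an unadjusted p under 0.05, and their median log2 fold change was 0.23. With DESeq2 1 was called. The smallest p belonged to Ivl, the involucrin of the skin barrier, at 882 ± 177 normalized counts in CTRL and 1626 ± 553 in D30 tumors (SD, n = 5 each), with a log2 fold change of 0.85 ± 0.23 (SE; limma, adjusted p = 0.0695). Ivl passed the threshold without T4 (limma, adjusted p = 0.0210) and with DESeq2 (adjusted p = 0.0148). It did not pass with edgeR and TMM (adjusted p = 0.0534) or library-size scaling (limma, adjusted p = 0.157). Nor did Ivl pass when any tumor other than T4 was left out (limma, adjusted p 0.0666 to 0.177). Leaving out T5 gave 2 calls among the neighbours, Crct1 at -2.81 and Sprr1a at -1.25 on the log2 scale. Crct1 was scarce, at 1.77 to 14.6 normalized counts in CTRL and 0 to 5.72 in D30 tumors. Among S100a13, S100a14 and S100a16, which follow one another, the log2 fold change went from 0.63 to 3.24 and back to 0.99.

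**Figure D5:**
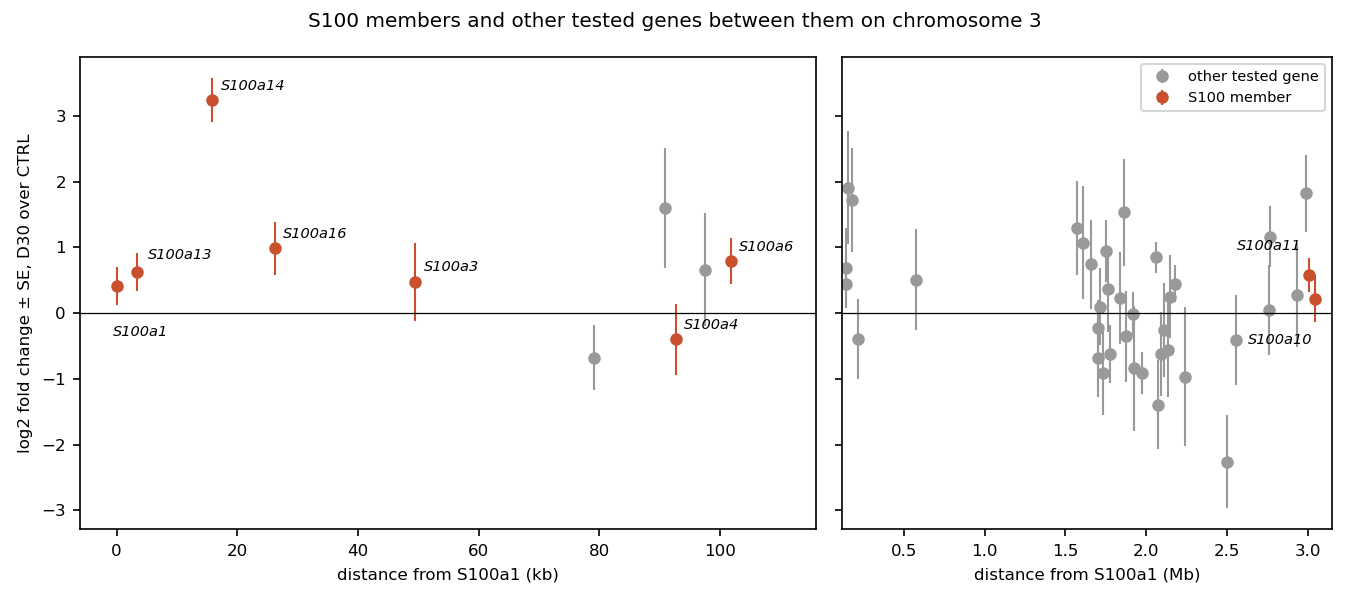
Log2 fold change with its SE of the S100 members (red) and of the other tested genes between them (grey), by distance from S100a1, in kb for the first stretch (left) and in Mb beyond it (right). S100a14 stands at 3.24, and the members beside it, S100a13 and S100a16, at 0.63 and 0.99.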

How the data were processed

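The authors prepared strand-specific, paired libraries, trimmed them and aligned reads with STAR (2.7.0e), with GRCm39 in the submitters' processing notes and hg38 in the methods. The authors deposited, for every gene in every tumor, a normalized signal that equals reads over a size factor as DESeq2 scales them, and whole reads were recovered for 100.0% of values (tolerance 0.01 of a read). The methods also name RSEM and DESeq2, and the settings of the counting and the annotation are not given in the sources used here. Names and positions came from GENCODE M21 (GRCm38), which matched 94.1% of identifiers. The members, lists and tests were chosen with earlier results of these data known.

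limma (3.58.1, R 4.3.3) with a mean-variance trend was fitted to log2(normalized count + 1) over the genes of mean 1 or more, with Benjamini-Hochberg adjustment at 0.05. Fold changes are differences of mean values on this scale, where the added 1 draws scarce genes together, and can differ from ratios of means. edgeR (4.0.16) and DESeq2 (1.42.0) on the recovered reads, other pseudocounts, filters and scalings, leaving out each tumor and a replicate block were alternatives. Only the main limma fit, edgeR with TMM and DESeq2 were also run on simulated counts, and the other alternatives were not. Named genes were the members, the called genes of 4 lists or else the 4 with the smallest p, called neighbours or the one with the smallest p, and the 2 genes most like each member. Efhd2, Crct1 and Sprr1a fall outside that rule. The coding sequence of 1 member is not reported here. Depth was 29192261 to 42122304 reads per tumor, and normalized counts under about 100 rest on few reads.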

Additional observations from a re-analysis of the deposited data

Results flagged for a closer look

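The 2 groups of each of the 10 members gave 20 groups of 5 values. In 4 of them a tumor's gap to the nearest other tumor exceeded 0.71 of the group's range. This was Dixon's test on normalized counts and not on the log2 scale. Chance gives such a gap in about 1 in 20 groups if values are normally distributed, which was not checked for these counts. All 4 were the D30 tumor T4, and since the members were measured in the same tumors and vary together, they count as 1 tumor and not as 4 independent cases. It held 277058 normalized counts of S100a6 against at most 89202 in the other D30 tumors, 26368 of S100a16 against at most 6683, 7799 of S100a14 against at most 3934, and 3804 of S100a13 against at most 1933. T4 is also the tumor with Y-linked reads, the highest level of the macrophage marker Lyz2 (46217 normalized counts) and the most raised short transcripts, and their part in these values was not tested.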

How the results depend on the processing

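As a description, since the members were chosen from this contrast, the number of members called was 1 under all 23 alternatives, and it was S100a14. Values changed sign for 5 members that were not called. S100a1 was at -0.051 with the protein-coding length trend removed. S100a3 ran from -0.043 to 0.80 with 1 tumor left out, the lowest without T4. S100a4 was at 0.0092 with edgeR and TMM. S100a10 ran from -0.12 to 0.40 with 1 tumor left out, the lowest without T4, and was at -0.24 with the protein-coding length trend removed and -0.0012 with library-size scaling. S100b ran from -0.16 to 0.41 with 1 tumor left out, below 0 without N2, T2 or T4, and was at -0.041 with the protein-coding length trend removed and -0.077 with library-size scaling. Library-size scaling moved the median of all genes tested from -0.06 to -0.27, and the members' median was 0.31 on that scale.

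The 5 calls among the listed genes became 9 with DESeq2 and 3 with no filter on low values, and ran from 1 to 8 with 1 tumor left out, the highest without T4. Over the listed genes, called or not, the median log2 fold change was 0.18 in the main fit. That median was 0.35 with DESeq2, 0.34 with edgeR and DESeq2's size factors, 0.35 with edgeR and TMM and -0.020 with library-size scaling. The median of the other S100 genes was 1.38 with DESeq2, 0.17 with the protein-coding length trend removed and 0.27 to 1.13 with 1 tumor left out. Neighbours called numbered 1 with DESeq2 and 0 to 2 with 1 tumor left out. The median r of member pairs was 0.23 with the protein-coding length trend removed and ran from 0.47, without T4, to 0.83 with 1 tumor left out. The cause of these moves was not tested.

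The labels do not say whether the column numbers pair tumors. Deviations of same-numbered columns had correlations from -0.21 to 0.01 over 4 pairs, too few to tell whether they were paired. With a replicate block over these 8 tumors the listed genes had 0 calls, against 1 without the block in the same tumors, and S100a14 was called in both. S100a3 rests on 33 to 343, S100a4 on 11 to 90 and S100b on 13 to 51 reads per tumor.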
